A study of Rattus norvegicus with 28 samples.

Results

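The vessel lining of the genetically matched heart transplant was compared between day 4 and day 2 after grafting. Lewis hearts had been placed into the neck of Lewis recipients with cuffs (isografts), so donor and recipient shared their transplantation antigens. The comparison took the 3 arrays of isografts on day 4 and the 3 of isografts on day 2, 6 of the 28 arrays of the series. All came from male rats, and the sources used here give no age. After the heart was minced, cells with the leukocyte protein CD45 were removed with beads and cells with CD31, a protein of endothelial junctions that platelets and many leukocytes also carry, were collected. Isografts of day 3 (3 arrays) and ungrafted Lewis hearts (3 arrays) place the values in time. Hearts of DA rats grafted into Lewis recipients, mismatched for these antigens (allografts), give the same interval on day 4 and day 2 (3 arrays each), and leukocytes of such allografts (4 arrays) give the level of a transcript in those cells. The labels do not say whether the 3 arrays of a group came from separate animals, so p-values measure the spread between these samples, which may be technical.

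A matched graft is spared rejection, but it has been cut off from blood, flushed and reperfused. The sterile injury opens the endothelium to circulating cells: neutrophils arrive early, monocytes follow and mature in the tissue into macrophages, which clear dead cells, and fibroblasts then lay down collagen. Tissue macrophages are known for making C1q, the first component of the classical complement pathway, and they can carry CD31.

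Genes of macrophages led the difference between day 4 and day 2. Of 14217 genes, limma called 5 higher on day 4 than on day 2, which is 0.0352% (Benjamini-Hochberg adjusted p under 0.05), namely Cfd, C1qa, Adgre1, C1qc and Rarres1, and 0 lower. At an unadjusted p under 0.05 the counts were 217 higher and 126 lower. By size alone, 53 genes (0.373%) were at least 2-fold higher on day 4 with no overlap between the 3 arrays of each day, and 0 were lower by that measure. Without the size limit, 573 genes (4.03%) were higher and 461 (3.24%) lower with arrays not overlapping. Differences are day 4 minus day 2 on the log2 scale, where 1 is 2-fold, and the median over all genes was 0.01 with a median standard error (SE) of 0.17. From day 2 to day 3 and from day 3 to day 4 limma called 0 genes in either direction (108 higher and 128 lower, and 73 higher and 149 lower, at an unadjusted p under 0.05). By the 2-fold measure 8 genes were higher (0.0563%) and 4 lower (0.0281%) on day 3 than on day 2, and 15 higher (0.106%) and 0 lower on day 4 than on day 3.

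**Figure D1:**
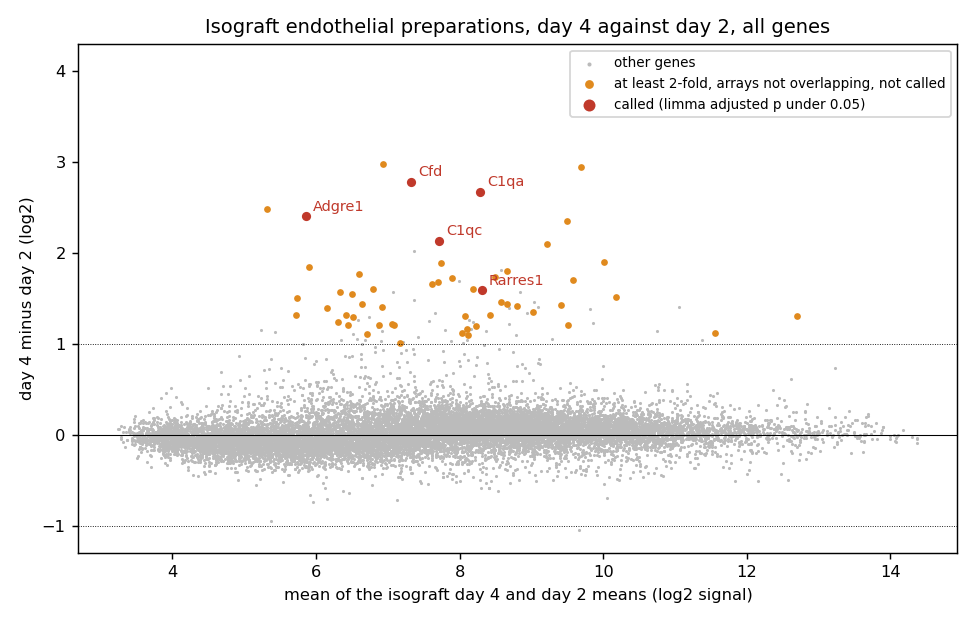
Each point is 1 of 14217 genes, with the mean log2 signal of the isograft day 4 and day 2 arrays on the x axis and the log2 difference, day 4 minus day 2, on the y axis. The 5 called genes (red) and the other genes at least 2-fold higher with arrays not overlapping (orange) all lie above the dotted line at 1, and no coloured point lies below the line at -1.

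The 6 arrays were alike over all genes and differed in their macrophage transcripts. Their medians were 6.54 to 6.58 on the log2 scale, and across genes (no independent replicates) arrays of day 4 correlated with r = 0.988 to 0.990, arrays of day 2 with r = 0.984 to 0.994 and arrays of different days with r = 0.984 to 0.991. Day 2 replicate 2 stood apart. It was the highest day 2 array in 50 of the 53 genes, against 38.8% of all genes, and day 4 replicate 2 was the lowest day 4 array in 48 of the 53, against 31.5% of all genes. Without day 2 replicate 2, limma called 17 genes, among them all 5 above, and 130 genes passed the 2-fold measure. Without day 4 replicate 2 the counts were 9, again with all 5, and 103. Leaving out any other array of the pair of days gave 1 or 2 called genes, with C1qa among them each time, and 47 to 58 genes past the 2-fold measure. With these 6 arrays alone in the fit, in place of all 24 endothelial arrays, 1 gene was called (C1qa), and with arrays weighted by their quality 41 were.

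C1qa encodes the A chain of C1q and lies beside its sister genes C1qb and C1qc on chromosome 5. It had 9.74, 9.39 and 9.74 log2 units on day 4, against 6.65, 7.44 and 6.75 on day 2. All day 4 arrays lay above all day 2 arrays and the difference was 2.68 (SE 0.33, limma adjusted p = 0.00131). Ungrafted Lewis hearts had 5.92, 6.67 and 6.41. C1qc, the C chain, had 8.97, 8.25 and 9.11 on day 4 and 6.37, 7.00 and 6.57 on day 2, a difference of 2.13 (SE 0.35, limma adjusted p = 0.0184). C1qb, the B chain, had 8.49, 8.34 and 8.79 on day 4 and 6.36, 7.28 and 6.95 on day 2, again without overlap, but its difference of 1.68 (SE 0.38) was not called (limma adjusted p = 0.294). The 3 chains are assembled into 1 protein, and the difference was positive in each.

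Cfd encodes complement factor D, the protease that starts the amplification loop of the alternative pathway. Its levels were 8.70, 7.99 and 9.44 on day 4 and 5.34, 6.51 and 5.92 on day 2, a difference of 2.79 (SE 0.44, limma adjusted p = 0.0149). The day 2 levels, apart from replicate 2, lay near the 5.37, 5.37 and 5.47 of ungrafted Lewis hearts. Factor D is also known as adipsin and is made in quantity by fat cells. Of 11 measured genes of the fat cell list, Cfd among them, 3 were positive and 1 (Cfd) was called, with a median of -0.05. Its defining members Adipoq and Plin1 (chosen after their values were seen) differed by 0.03 (SE 0.25) and -0.14 (SE 0.13). Cfd was 3.93 log2 units higher in graft leukocytes than in allograft endothelial preparations. The part of either cell type in the Cfd difference was not tested. Adgre1 encodes F4/80, the classical surface marker of rodent macrophages. It had 8.10, 5.90 and 7.18 on day 4, against 4.34, 5.31 and 4.32 on day 2, and the day 4 arrays spread widely, replicate 2 being only just above the highest day 2 array. The difference was 2.40 (SE 0.39, limma adjusted p = 0.0184), with ungrafted hearts at 4.02, 4.14 and 4.18. Rarres1, a retinoic acid responsive gene that encodes a carboxypeptidase inhibitor, had 9.57, 8.61 and 9.12 on day 4 and 7.46, 7.87 and 7.21 on day 2, a difference of 1.59 (SE 0.25, limma adjusted p = 0.0149). Each of the 5 was measured by 1 probe set on the array.

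Of the 5 called genes, the 250 bases before the start of 4 are shown, from RefSeq on the rat build GRCr8, 5′ to 3′ on the gene's strand: C1qa at chr5:154419934-154420183 (minus strand), Cfd at chr7:10465497-10465746 (minus strand), Adgre1 at chr9:2329190-2329439 (plus strand) and Rarres1 at chr2:154094022-154094271 (minus strand). C1qc is named only. Capitals mark GAGGAA on either strand, the purine-rich core to which PU.1, the master transcription factor of macrophages, can bind. It occurred in 2 of the 4 stretches (1 match each in Adgre1 and Rarres1) and in 23.3% of 33469 such stretches of all genes, so a match describes the letters and not a site in use.
C1qa: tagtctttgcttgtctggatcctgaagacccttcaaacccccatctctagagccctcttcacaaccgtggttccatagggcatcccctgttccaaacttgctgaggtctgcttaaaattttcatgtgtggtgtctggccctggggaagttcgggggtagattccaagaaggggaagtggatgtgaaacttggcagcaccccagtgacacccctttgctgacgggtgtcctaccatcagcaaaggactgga
Cfd: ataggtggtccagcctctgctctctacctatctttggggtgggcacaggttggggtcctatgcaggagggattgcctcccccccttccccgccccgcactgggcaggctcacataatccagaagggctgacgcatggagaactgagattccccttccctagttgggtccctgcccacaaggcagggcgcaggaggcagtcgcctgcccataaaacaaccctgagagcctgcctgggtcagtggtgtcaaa
Adgre1: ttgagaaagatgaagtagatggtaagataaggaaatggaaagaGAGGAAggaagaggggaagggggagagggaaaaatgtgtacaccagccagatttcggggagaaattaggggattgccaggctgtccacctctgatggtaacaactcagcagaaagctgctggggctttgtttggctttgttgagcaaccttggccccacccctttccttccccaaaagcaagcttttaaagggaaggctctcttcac
Rarres1: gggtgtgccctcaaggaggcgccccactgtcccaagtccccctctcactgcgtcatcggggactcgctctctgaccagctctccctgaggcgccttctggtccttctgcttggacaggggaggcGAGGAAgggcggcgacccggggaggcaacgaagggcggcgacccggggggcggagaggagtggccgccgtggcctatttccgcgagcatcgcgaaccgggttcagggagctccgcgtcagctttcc

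The next 10 genes by their test statistic, all at least 2-fold higher with arrays not overlapping but not called, were mostly surface and lysosomal proteins of phagocytes. Fcgr2b, the inhibitory receptor for antibody, had the largest difference of all genes. It had 8.68, 8.14 and 8.45 on day 4 and 4.87, 6.78 and 4.67 on day 2, where replicate 2 stood between its group and day 4, and the difference was 2.98 (SE 0.57, limma adjusted p = 0.0806). Ccl9, a chemokine that attracts myeloid cells in rodents, had 7.67, 6.75 and 8.01 on day 4 and 5.60, 6.28 and 5.25 on day 2, a difference of 1.77 (SE 0.33, limma adjusted p = 0.0806). Mpeg1 encodes perforin-2, a pore-forming protein of macrophages. Its levels of 9.99, 8.95 and 9.74 on day 4 and 7.49, 8.68 and 7.11 on day 2 stood far above the 4.67, 4.50 and 4.96 of ungrafted hearts already on day 2, and the difference was 1.80 (SE 0.35, limma adjusted p = 0.1). Clec10a, a galactose-binding lectin of macrophages and dendritic cells, differed by 1.73 (SE 0.36, limma adjusted p = 0.176) and Clec4a3, an inhibitory lectin, by 1.73 (SE 0.40, limma adjusted p = 0.294). Ctss, the lysosomal protease cathepsin S that trims the MHC class II chaperone, had 10.37, 9.71 and 10.31 on day 4 and 8.30, 9.43 and 8.37 on day 2. C6, of the terminal complement pathway, had 7.42, 7.53 and 6.87 on day 4 and 5.55, 5.76 and 5.86 on day 2, and alone among the 15 leading genes its highest day 2 array was replicate 3. The others were Creg1, a secreted lysosomal glycoprotein (1.61), and Tgfbi, a matrix protein induced by TGF-beta (1.46), beside C1qb.

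**Figure D2:**
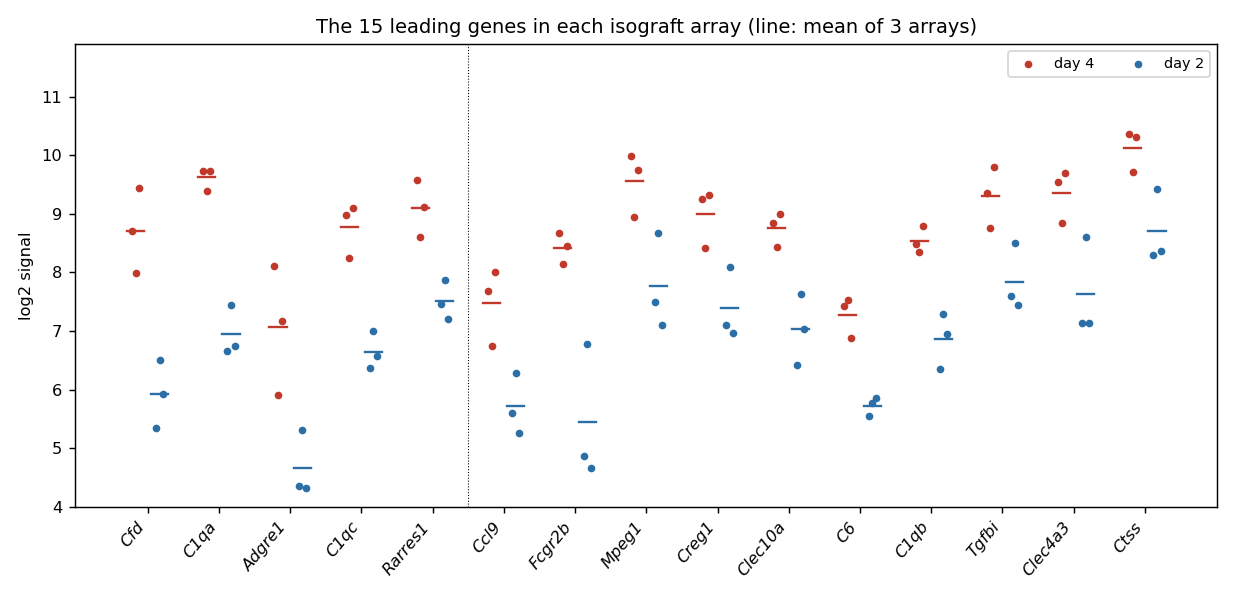
Log2 signal of the 15 leading genes in each isograft array, with day 4 (red) left of day 2 (blue), 1 point per array and a line at the mean of 3. The 5 called genes stand left of the dotted line. No gene shown has overlapping days, and in 14 of the 15 the highest day 2 point is replicate 2.

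All 15 leading genes had their day 3 mean between day 2 and day 4, and so had 51 of the 53. The choice of genes by a wide gap between day 2 and day 4 favours these counts. The 53 were for the most part transcripts that leukocytes hold in excess: 46 (86.8%) had a level in leukocytes of allografts that exceeded the endothelial preparations of allografts at least 2-fold, against 9.35% of all genes, and the 15 leading genes were higher there by 2.12 to 4.98 log2 units. The leukocyte arrays may have been normalized apart from the endothelial ones, and their median difference of 0.33 was removed first, so these are levels and not tests. More macrophages in the preparation and more of these RNAs per cell cannot be told apart in bulk RNA. The remaining 7 genes were Col1a1, Col1a2, Col3a1, Lum, Postn, Tnn and Prnd, named to complete the count. Of the 53, 27 were in a list compiled for cell types or processes and 26 in none.

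Of 29 listed macrophage markers 22 were measured, and the difference was positive in all 22, with a median of 1.39 against 0.01 over all genes. limma called 3 (C1qa, C1qc and Adgre1), beside 0.0352% of all genes, and 13 passed the 2-fold measure, beside 0.373% of all genes. The mean level of the 22 was 9.17, 8.44 and 9.21 on day 4 and 7.00, 8.14 and 7.04 on day 2, so that day 2 replicate 2 lay a little below day 4 replicate 2 and far above the other arrays of its day. In ungrafted hearts it was 5.69, 5.85 and 5.93. Without single arrays, or with the other settings tried, the median was between 1.19 and 1.83. By the same measure all 22 were higher in leukocytes. The largest differences beside the genes above were those of Aif1, Cybb and Cd163, 3 genes chosen after their values were seen. Aif1, which encodes the actin-bundling protein IBA1, had 8.78, 7.40 and 8.92 on day 4 and 5.75, 7.74 and 5.56 on day 2, and the days overlapped through day 2 replicate 2 (2.02, SE 0.54, limma adjusted p = 0.548). These are values of the brighter of its 2 probe sets, and over the alternatives the Aif1 difference was 0.99 to 2.71. Cybb, the membrane subunit of the phagocyte NADPH oxidase, had 8.96, 7.94 and 9.14 on day 4 and 6.34, 7.80 and 6.24 on day 2 (1.88, SE 0.45, limma adjusted p = 0.332). Cd163, the scavenger receptor for haemoglobin bound to haptoglobin, had 7.05, 6.56 and 6.87 on day 4 and 4.43, 5.77 and 4.75 on day 2 (1.84, SE 0.49, limma adjusted p = 0.518).

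Macrophage genes also stood above the ungrafted Lewis heart. Against it limma called 9 of the 22 higher on day 2 (background 1.06% of all genes) and 20 on day 4 (background 2.61%). These comparisons share the ungrafted arrays with each other and the graft arrays with the comparison of days. Gpnmb, a glycoprotein of lipid-laden phagocytes, had the highest excess. It had 6.15, 5.54 and 6.09 in ungrafted hearts, 10.36, 11.81 and 10.39 on day 2 and 12.13, 11.15 and 12.40 on day 4, an excess of 4.93 (SE 0.48, limma adjusted p = 1.02e-05) on day 2 and 5.97 (SE 0.48, limma adjusted p = 3.22e-07) on day 4. Lyz2, the lysozyme of myeloid cells (chosen after its values were seen), was 2.86 above ungrafted hearts on day 2 (limma adjusted p = 3.94e-05) and 4.17 on day 4 (limma adjusted p = 3.22e-07). Mpeg1 was 3.05 above them on day 2 (limma adjusted p = 3.94e-05) and 4.86 on day 4 (limma adjusted p = 1.74e-07). The excess of these 3 genes passed the test on day 2 already. For C1qa, Adgre1 and Cd163 it did not, and the difference between these genes was not tested. C1qa stood 0.61 (SE 0.33, limma adjusted p = 0.586) above ungrafted hearts on day 2 and 3.29 (SE 0.33, limma adjusted p = 5.37e-06) on day 4. Adgre1 stood 0.55 (limma adjusted p = 0.75) above them on day 2 and 2.95 (limma adjusted p = 0.000102) on day 4, and Cd163 0.82 (limma adjusted p = 0.652) on day 2 and 2.66 (limma adjusted p = 0.00272) on day 4. Over the 53 genes, limma called 6 higher than in ungrafted hearts on day 2 and 48 on day 4, a count that the choice of genes by their day 4 excess favours.

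**Figure D3:**
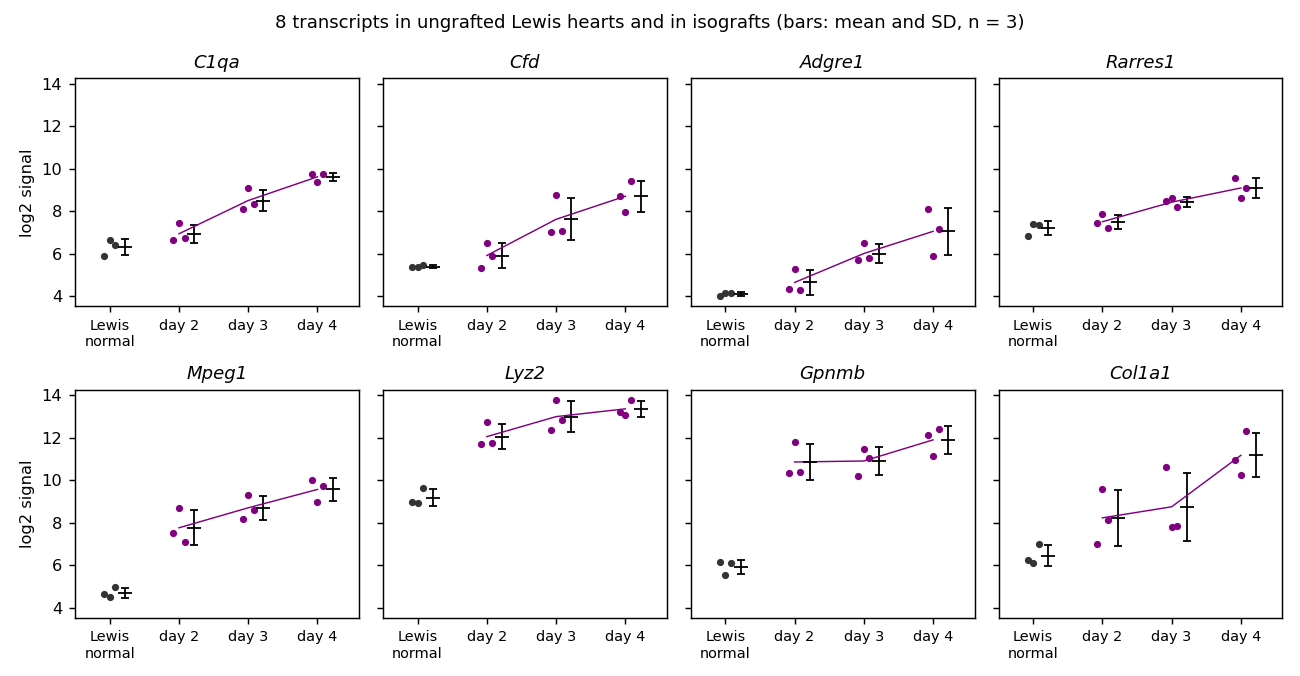
Log2 signal of 8 transcripts in ungrafted Lewis hearts and in isografts on days 2, 3 and 4, 1 point per array, with the mean and SD of 3 beside them and a line through the graft means. C1qa, Cfd, Adgre1 and Rarres1 lie near the ungrafted level on day 2 and above it on day 4, while Mpeg1, Lyz2 and Gpnmb stand far above it on day 2, and the arrays of Col1a1 spread widely on every graft day.

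Beside the markers, several of the 53 genes are known from macrophages that take up debris or damp inflammation. They are named after their values were seen, and none was called. Arg1, arginase 1, had 8.73, 8.64 and 8.38 on day 4 and 6.77, 8.36 and 7.29 on day 2 (1.11, SE 0.54, limma adjusted p = 0.999). Its lowest day 4 array was only just above day 2 replicate 2. Il10, an anti-inflammatory cytokine, had 7.03, 5.92 and 6.22 on day 4 and 4.87, 5.18 and 5.15 on day 2. Hmox1, haem oxygenase 1, which degrades haem, had 11.61, 10.24 and 10.95 on day 4 and 8.99, 10.04 and 9.23 on day 2 (1.51, SE 0.39, limma adjusted p = 0.496), with day 4 just above the highest day 2 array. F13a1, the A chain of coagulation factor XIII, which macrophages also make, differed by 1.41 (SE 0.42, limma adjusted p = 0.762), and Folr2, a folate receptor of resident tissue macrophages, by 1.32 (SE 0.33, limma adjusted p = 0.425). The 53 also held inflammatory genes, here named after their values were seen and not called. These were Il18 (1.22, SE 0.47), Ccl3 (1.42, SE 0.39) and Ccl4 (1.20, SE 0.42), among others. Outside the 53, Il1b had 10.31, 9.58 and 9.50 on day 4 and 7.39, 10.48 and 7.33 on day 2, where replicate 2 exceeded every day 4 array (1.40, SE 0.70, limma adjusted p = 0.999). Nos2, inducible nitric oxide synthase (also chosen after its values were seen), had 7.94, 8.19 and 8.04 on day 4 and 8.24, 7.76 and 8.41 on day 2, a difference of -0.08 (SE 0.21, limma adjusted p = 0.999). The NF-kB inflammatory list of 24 measured genes had a median of 0.10 with 0 called and 0 past the 2-fold measure.

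Complement genes held 3 of the 5 calls. Of 20 listed genes 14 were measured, 3 were called higher (C1qa, C1qc and Cfd; 0.0352% of all genes), 4 passed the 2-fold measure (0.373% of all genes) and 10 were positive, with a median of 0.34. That median was 0.13 without day 4 replicate 1, 0.53 without day 4 replicate 3 and 1.16 over the brighter genes. MHC class II genes, which present antigen and are expressed by macrophages, dendritic cells, B cells and activated endothelium, had a median of 0.86 over 8 genes (0.63 with the mean of the probe sets of a gene), 7 of them positive, 0 called and 0 past the 2-fold measure. Cd74, their invariant chain, had 9.01, 9.54 and 10.34 on day 4 and 7.61, 9.25 and 7.31 on day 2 (1.57, SE 0.50, limma adjusted p = 0.91). RT1-Bb, a class II beta chain of the rat, had 8.30, 8.84 and 9.37 on day 4 and 6.62, 8.64 and 6.17 on day 2 (a difference of 0.78 to 2.44 over the alternatives). Day 2 replicate 2 overlapped with day 4 in both, while the other day 2 arrays lay near the ungrafted 6.43, 6.75 and 6.02 of RT1-Bb. Without it, RT1-Bb and RT1-Da were among the 17 genes called. Of 15 CC chemokines, which draw monocytes and lymphocytes, 3 passed the 2-fold measure (Ccl9, Ccl3 and Ccl4), with a list median of 0.05. Ccl3, which activates monocytes, had 9.99, 8.80 and 9.73 on day 4 and 7.82, 8.62 and 7.81 on day 2 (1.42, SE 0.39, limma adjusted p = 0.555). Pf4, a CXC chemokine of platelets and of some macrophages, differed by 1.70 (SE 0.43, limma adjusted p = 0.425), with 10.57, 9.82 and 10.89 on day 4 and 8.19, 9.52 and 8.46 on day 2. The platelet genes Itga2b (chosen after its values were seen) and Gp9 differed by -0.06 and -0.17, and the 9 measured genes of the platelet list had a median of -0.0029.

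Collagens and other matrix genes made the other sizeable group. Of 43 measured, 5 passed the 2-fold measure (0.373% of all genes), 0 were called and 35 were positive, with a median of 0.23. That median was 0.38 without day 4 replicate 2, 0.10 without day 4 replicate 3, 0.42 without day 2 replicate 2 and 0.15 without day 2 replicate 3. The mean level of the list was 9.62, 9.42 and 10.10 on day 4 and 8.88, 9.72 and 9.06 on day 2, so that day 2 replicate 2 exceeded day 4 replicates 1 and 2. Col1a1, a chain of the main scar collagen, had 10.97, 10.24 and 12.29 on day 4 and 6.99, 9.58 and 8.11 on day 2, a difference of 2.94 with an SE of 1.17 (limma adjusted p = 0.999). Day 2 replicate 2 was again the nearest to day 4, and with this spread the difference did not pass the test. Lum, the collagen-binding proteoglycan lumican, had 10.58, 10.44 and 10.98 on day 4 and 6.96, 9.68 and 8.31 on day 2. Postn, periostin, a matrix protein of activated fibroblasts, had 10.09, 9.75 and 10.97 on day 4 and 6.64, 9.54 and 8.35 on day 2, against 4.64, 4.18 and 5.07 in ungrafted hearts, and its difference was 2.10 (SE 1.03, limma adjusted p = 0.999). Col1a2 differed by 1.90 (SE 0.91, limma adjusted p = 0.999). Tnn, tenascin N (chosen after its values were seen), stood at the ungrafted level on day 2 and above it on day 4, with 6.43, 5.68 and 7.58 on day 4 and 3.93, 4.20 and 4.10 on day 2 (2.49, SE 0.67, limma adjusted p = 0.53). On day 3 the mean level of the list was 9.67, 8.98 and 8.91, with replicate 1 above day 4 replicates 1 and 2 and the other arrays near the lower day 2 arrays. Col1a1 had 10.60, 7.79 and 7.85 on day 3, again with replicate 1 highest. The list had a median of -0.07 from day 2 to day 3 and 0.29 from day 3 to day 4. The fibroblast list shares Col1a1, Col1a2, Col3a1, Lum and Postn with it and had a median of 0.24. Whether fibroblasts in the preparations took part in these differences was not tested.

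No endothelial marker was called. The 20 measured endothelial markers had a mean level of 11.94, 11.98 and 11.99 on day 4 and 12.02, 12.05 and 11.91 on day 2, far above the median of the arrays, with a median difference of 0.01 whose sign turned with the arrays centred on their median, with quantile normalization repeated, without any 1 of the day 4 replicates and without day 2 replicate 3 (-0.07 to -0.01). Kdr, the VEGF receptor, had 12.78, 12.84 and 12.62 on day 4 and 12.75, 12.37 and 12.64 on day 2, Tek, the angiopoietin receptor, differed by -0.10 (SE 0.18) and Pecam1, which encodes CD31, by -0.13 (SE 0.24). These 3 were chosen after their values were seen. The lowest of the list was Vwf, the clotting carrier of endothelial granules, with 12.05, 11.73 and 11.94 on day 4 and 12.64, 12.57 and 12.02 on day 2 (-0.51, SE 0.21, limma adjusted p = 0.999). The adhesion receptors Selp and Sele, through which leukocytes roll on activated endothelium (chosen after their values were seen), overlapped between the days. Selp had 11.09, 11.60 and 10.17 on day 4 and 10.16, 12.11 and 10.74 on day 2, against 6.58, 7.64 and 7.14 in ungrafted hearts, and its difference was -0.05 (SE 0.44). Sele differed by 0.21 (SE 0.38).

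On the lower side no gene passed the test or the 2-fold measure. Angptl4, an inhibitor of lipoprotein lipase that hypoxia induces, was the only gene at least 2-fold lower, with 9.11, 9.26 and 9.05 on day 4 and 9.14, 11.18 and 10.24 on day 2, and the days overlapped (-1.05, SE 0.45, limma adjusted p = 0.999). Madcam1, an adhesion receptor for lymphocytes of the gut, had 5.61, 5.82 and 5.33 on day 4 and 5.86, 6.69 and 6.44 on day 2, without overlap, and came nearest to the test (-0.74, SE 0.16, limma adjusted p = 0.18). Without day 2 replicate 1 it was called lower. Mitosis genes were mostly negative: 31 of 33 measured were negative, 6 were lower with arrays not overlapping (background 3.24%), 0 were called and the median was -0.30, or -0.14 without day 2 replicate 2 and -0.18 with array weights. Mki67, the proliferation marker, had 8.36, 8.04 and 7.95 on day 4 and 8.60, 9.15 and 8.35 on day 2. The median of the mitosis list was -0.48 from day 2 to day 3 and 0.19 from day 3 to day 4. The 25 measured genes of DNA replication had a median of -0.08.

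**Figure D4:**
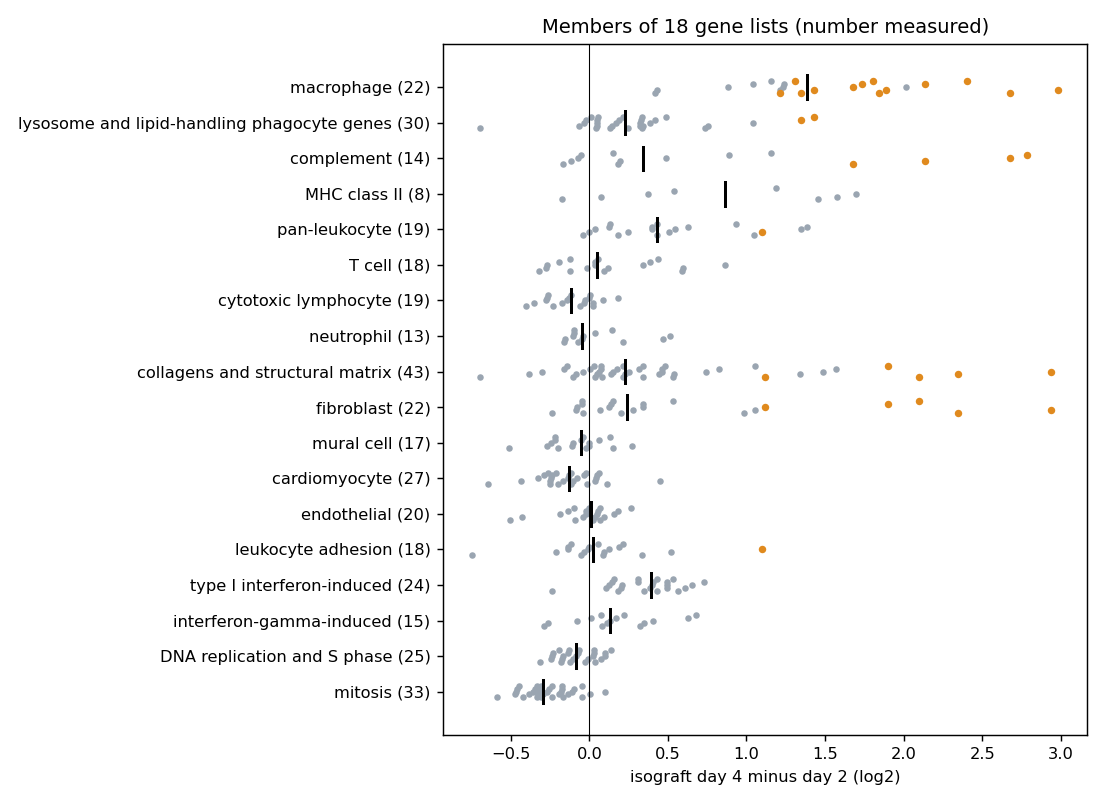
Log2 difference, isograft day 4 minus day 2, of the measured members of 18 gene lists, 1 point per gene, with a bar at the median of the list. Orange points were at least 2-fold apart with arrays not overlapping, called or not. The macrophage list lies wholly above 0 with a median of 1.39, the matrix and fibroblast lists have single high members over medians of 0.23 and 0.24, and the mitosis list lies mostly below 0.

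Lists for other leukocytes held no call. The general leukocyte list of 19 measured genes had a median of 0.43, or 0.27 without day 2 replicate 3, with 1 gene (Itgb2) past the 2-fold measure. Ptprc, which encodes CD45 itself (chosen after its values were seen), had 8.07, 7.11 and 7.97 on day 4 and 6.55, 7.87 and 5.93 on day 2, against 5.40, 5.29 and 5.67 in ungrafted hearts, so CD45 transcripts were present in preparations depleted of cells with the protein. Day 2 replicate 2 again stood above the other arrays of its day, here also above day 4 replicate 2. The part of residual leukocytes in the 5 calls was not tested. T cell genes had a median of 0.05 (18 measured), cytotoxic lymphocyte genes -0.11 (19), neutrophil genes -0.04 (13) and B cell genes -0.06 (11), each with 0 called and 0 past the 2-fold measure. Cd3e, the signalling chain of the T cell receptor (chosen after its values were seen), had 5.91, 6.13 and 6.38 on day 4 and 5.91, 7.08 and 6.22 on day 2, beside the 6.11, 6.31 and 6.17 of ungrafted hearts. Cd8a, with the highest difference of the T cell list, differed by 0.86 (SE 0.35) and Cd4 by 0.59 (SE 0.21). Of the 18 T cell genes 11 were positive. With arrays not overlapping, 2 were higher and 0 lower (4.03% and 3.24% of all genes). On day 4 limma called 4 of them above ungrafted hearts, beside 2.61% of all genes. S100a9, an abundant neutrophil protein, had 6.90, 6.46 and 6.54 on day 4 and 4.92, 8.16 and 5.28 on day 2, with replicate 2 of day 2 the highest of all 6. Cardiomyocyte genes had a median of -0.13 (27 measured) and mural cell genes -0.05 (17), with 0 called.

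Over the same interval, the mismatched graft gave a longer list. limma called 54 genes higher (0.38%) and 0 lower on day 4 than on day 2 in allografts. That count was 506 without allograft day 4 replicate 1, 15 to 58 without any other of the 6 arrays, and 0 with these arrays alone in the fit. The interferon-gamma-induced list had a median of 0.13 in isografts with 0 of 15 called, and 2.53 in allografts with 8 called. Ido1, the interferon-induced enzyme that degrades tryptophan (chosen after its values were seen), had 5.26, 5.45 and 4.89 in isografts on day 4 and 5.32, 5.02 and 5.02 on day 2, against 9.08, 10.62 and 13.45 in allografts on day 4 and 7.34, 6.84 and 4.92 on day 2. Its change was 0.08 in isografts and 4.69 in allografts, and the difference of both was -4.60 (SE 1.03, limma adjusted p = 0.36). Type I interferon-induced genes were positive in 23 of 24 in isografts, with a median of 0.39 and 0 called, against a median of 1.17 in allografts with 2 called. The isograft median was 0.20 without isograft day 4 replicate 2. MHC class I genes had a median of 0.15 in isografts with 0 called, and 0.77 in allografts with 5 called. For single genes, the difference of changes was called in 1 gene of 14217 (0.00703%), Sectm1b, with a change of 0.01 in isografts and 2.69 in allografts.

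Allograft values of the macrophage genes stand beside those of isografts here. The macrophage list had a median change of 1.39 in isografts and 0.35 in allografts, where the median over all genes was -0.01. In allografts 2 of the 22 were called higher, beside 0.38% of all genes. Of the 15 leading genes, 15 were positive in allografts and 2 were called there: C1qa by 1.60 (SE 0.33, limma adjusted p = 0.031) and Rarres1 by 1.15 (SE 0.25, limma adjusted p = 0.0423). C1qa had 9.71, 10.14 and 9.91 in allografts on day 4, about the level of isografts on that day, and 8.09, 7.60 and 9.25 on day 2, where all 3 arrays lay above those of isografts. Allograft hearts also differ from isograft hearts in strain, so mismatch and strain cannot be told apart here. Mpeg1 had 9.37, 9.74 and 9.98 in allografts on day 4 and 9.41, 8.88 and 9.86 on day 2, a change of 0.32 (SE 0.35) against 1.80 (SE 0.35) in isografts, and the difference of changes was 1.48 (SE 0.50, limma adjusted p = 1). Of the 15 leading genes, 7 had an unadjusted p under 0.05 for this difference and 0 were called, and of the 53 the counts were 17 and 0. Over all genes, 129 were higher and 216 lower in isografts at an unadjusted p under 0.05. The genes had been chosen by the isograft change that enters this difference, so these counts do not bear on whether it is larger in isografts. Over the 53, the median change was 1.46 in isografts and 0.51 in allografts, and 49 were positive in allografts, of which 6 passed the 2-fold measure there (background 0.682% of all genes).

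**Figure D5:**
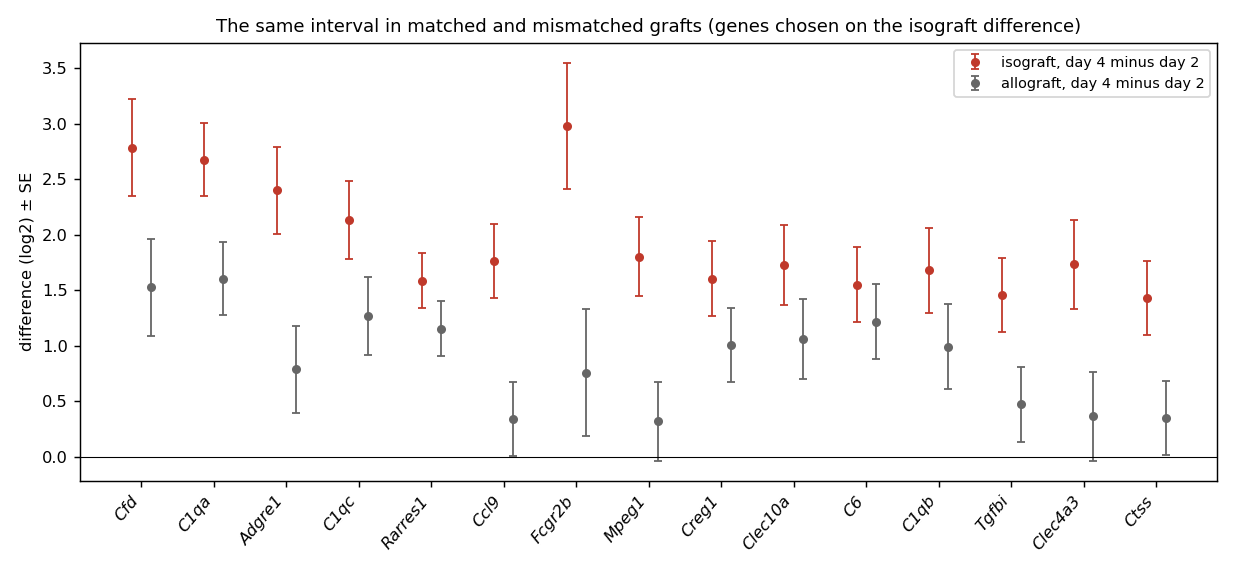
Log2 change from day 2 to day 4 with its SE for the 15 leading genes, isografts (red) left of allografts (grey). Every isograft change lies above the allograft change of the same gene, which the choice of genes by their isograft change favours, and every allograft change lies above 0.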

How the data were processed

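RNA had been labelled with biotin after 1 cycle of amplification and hybridized to Affymetrix arrays. The values the authors deposited are log2 signals per probe set, made with RMA in the affy package per the submitters' processing notes; versions are not given in the sources used here. By their medians, the 24 endothelial arrays (6.51 to 6.59) and the 4 leukocyte arrays (6.83 to 6.88) may have been normalized apart. The deposited log2 values were used as they stood, and 0 data columns belonged to no sample. Array signals have no counting depth, and the number of arrays limits the precision.

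Of 31099 probe sets, 57 controls, 436 that match several genes and 9780 with no gene listed in the annotation used here were left out. For 20758 of the remaining 20826 the symbol came from RefSeq by Entrez identifier. Where a gene had several probe sets (4525 genes), the brightest by its endothelial mean stood for it, and all 14217 genes, dim ones included, were tested. The fit used limma 3.58.1 (lmFit and eBayes, R 4.3.3, version 1.17.8 of data.table) with a mean for each of the 8 endothelial groups (24 arrays, 16 residual and 4.06 prior degrees of freedom). Benjamini-Hochberg adjustment ran over the 14217 genes per comparison, and a gene with an adjusted p under 0.05 was called. The procedure was tested on simulated data.

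Of 47 gene lists (29 of processes, 18 of cell types) 834 of 961 entries were measured. Lists are described by counts and medians, with no test. The comparison, the lists and the tests were chosen with earlier results of these data known. Named were the 15 highest and 15 lowest called genes, filled where fewer were called with genes at least 2-fold apart with arrays not overlapping, by their moderated t (10 higher and 0 lower), every called list member, and up to 4 members with the largest difference in each list described. Other genes are said to have been chosen after their values were seen. Leukocyte levels are the mean of 4 leukocyte arrays minus that of 9 allograft endothelial arrays, after the difference of medians was removed. Replicate numbers did not pair the days: deviations of same-numbered arrays from their group means correlated with r = 0.25, -0.03 and -0.13.

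The alternatives were fits on only the arrays compared, on isograft and Lewis normal arrays, with a replicate block, with an intensity trend and robust prior, and with array weights. Others kept only bright genes, repeated the quantile normalization, centred the arrays, used the mean of probe sets or every probe set, or left out each replicate in turn.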

Additional observations from a re-analysis of the deposited data

Results flagged for a closer look

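Sectm1b, an immune surface protein gene chosen after its values were seen, was the single gene that limma called for a difference between graft types in the change from day 2 to day 4 (129 genes were higher and 216 lower in isografts at an unadjusted p under 0.05). The isograft change minus the allograft change was -2.68 on the log2 scale (SE 0.37, limma adjusted p = 0.00662). In isografts it had 6.62, 6.63 and 6.33 on day 4 and 6.43, 6.49 and 6.64 on day 2, and in allografts 8.99, 9.64 and 10.56 on day 4 and 7.22, 7.23 and 6.67 on day 2. The isograft days overlapped and the allograft days did not. With the arrays of this comparison alone in the fit the count of called genes was 0, and without allograft day 4 replicate 1 it was 40.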

How the results depend on the processing

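Of the 5 called genes C1qa was called under all 16 alternatives, C1qc under 11, Cfd and Rarres1 under 10, and Adgre1 under 9 of the 15 that kept it, always with a positive difference. The count was 1 with only the 6 arrays in the fit, 2 with isograft and Lewis normal arrays, and 41 with array weights, whose estimation stopped before its tolerance was reached. It was 4 to 6 under the other alternatives that keep all replicates, and leaving out single replicates gave 1 to 17. The 53 genes past the 2-fold measure became 40 over bright genes and 47 to 130 without single replicates, and the count on the lower side 0 to 2. Day 3 against day 2 gave 0 to 1 without single replicates, and day 4 against day 3 stayed at 0. In allografts the count of 54 became 0 with only the arrays compared and 15 to 506 without single replicates, and the difference of changes 0 and 1 to 40. The cause was not tested. With a replicate block the same 5 genes were called, so pairing by number, which the arrays did not bear out, changed no isograft call. The 2-fold count of 53 could not change with a block, since it rests on group means and array overlap. In allografts 46 of the 51 genes called with the block were among the 54. Detection above background was not analysed here, so how far the floor of the arrays limits dim genes is unknown.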

Other observations

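Genes of sterol and fatty acid synthesis had 5 of 20 measured members higher on day 4 with arrays not overlapping, beside 4.03% of all genes, with a median of 0.13 and 0 called. Scd2, a fatty acid desaturase, had 9.07, 8.78 and 9.20 on day 4 and 8.05, 8.15 and 8.02 on day 2 (0.94, SE 0.35, limma adjusted p = 0.999). Over the alternatives the Scd2 difference was 0.37 to 1.06. Fdps, an enzyme of the mevalonate pathway, had 9.82, 9.69 and 9.99 on day 4 and 9.16, 9.59 and 9.27 on day 2 (0.49, SE 0.29, limma adjusted p = 0.999). Toll-like receptors and their adaptors were positive in 15 of 16, with a median of 0.24 and 0 called, and Tlr8, a sensor of single-stranded RNA in myeloid cells, had 7.51, 6.65 and 7.03 on day 4 and 5.55, 6.76 and 5.56 on day 2.

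Esm1, an endothelial proteoglycan of sprouting tip cells, had 8.80, 9.78 and 9.03 on day 4 and 8.55, 7.67 and 8.67 on day 2, all below the 10.96, 10.31 and 10.73 of ungrafted Lewis hearts. Day 4 was 0.90 above day 2 (SE 0.45, limma adjusted p = 0.999), and the differences from ungrafted hearts were -1.46 on day 4 (limma adjusted p = 0.0876) and -2.37 on day 2 (limma adjusted p = 0.0058). Of 10216 probe sets with no single gene, limma called 0 between the days when every probe set was tested, and 7 were higher and 1 lower by at least 2-fold with arrays not overlapping.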
